A study of Mus musculus with 2 samples.

Results

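Leukocyte miRNA genes are those whose miRNAs are abundant in white blood cells, and 6 of them were followed here in the kidney of the mouse embryo: Mir155, Mir142b (read for miR-142), Mir223, Mir146, Mir150 and Mir146b. They were chosen by name, as the rows of the count tables whose Ensembl identifier carries one of these symbols in the GENCODE annotation of mm10, and are 6 of 1973 counted miRNA genes. The series holds 1 group, kidneys of B6NCrl embryos at 14.5 days with no treatment or engineered allele in the labels, in 2 biological replicates of 2 kidneys each, sequenced as small RNA of less than 30 nucleotides. The replicates were collected on different days. The labels name a single pup for each sample, yet also both sexes and a donor identifier that both samples share, so the spread between the samples may be partly technical. There is no second condition, and every comparison is between miRNA genes or between the replicates.

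A miRNA gene gives a hairpin RNA, from which Drosha and Dicer cut a mature strand that guides Argonaute to messages pairing with its seed, bases 2 to 8. miR-142 is made in nearly all blood cell lineages, miR-223 mainly in granulocytes, monocytes and macrophages, and miR-150 mainly in mature B, T and NK cells. miR-155, from the Mir155hg (BIC) transcript, rises in activated lymphocytes and macrophages, and the miR-146 miRNAs are induced by NF-kappaB and restrain Toll-like receptor signalling through Traf6 and Irak1. In the embryo, macrophages that arise from the yolk sac and fetal liver populate the kidney before mature lymphocytes do.

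The mature strands are shown because their seeds place the members in families and because the sequences of miR-142 on both strands decide which column of counts reads it. The capitals mark the seed, and the sequences are from RefSeq on GRCm38.p6, which matched 6 of the 6 members. The strands read were 12 in number and 20 to 23 bases long, counting those of Mir142 across from Mir142b. For Mir150 the strand read was miR-150-3p, and miR-150-5p was not analysed here.
miR-155-5p: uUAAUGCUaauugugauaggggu
miR-142a-5p: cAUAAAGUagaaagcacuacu
miR-142a-3p: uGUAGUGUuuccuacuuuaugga
miR-142b: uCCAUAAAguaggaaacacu
miR-223-3p: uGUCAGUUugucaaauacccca
miR-146a-5p: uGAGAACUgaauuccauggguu
miR-146b-5p: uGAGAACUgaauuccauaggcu
miR-150-3p: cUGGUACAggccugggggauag

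Of the 12 strands read, only miR-146a-5p and miR-146b-5p share a seed. Among the 1679 mature names of the table, each of these was the only other strand with the other's seed, and none of the other strands read shared its seed with any name. Of their 22 bases 20 are identical, including the first 17, and the differences are G18A and U21C, with positions counted from 1 at the 5′ end and the base of miR-146a-5p first. A read must therefore reach base 18 to be told apart. The Mir146 and Mir146b hairpins also share a stretch of 21 bases with each other, and none of the other 4 members shares one with another annotated miRNA gene. In GENCODE transcripts, none of the 12 strands read was found on its own strand outside its own gene, apart from the transcripts Mir155hg and F630028O10Rik that contain the miR-155 and miR-223 hairpins. No genome sequence was searched.

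The members lie on 5 chromosomes of mm10 and none lies close to another on its own strand. Mir155 (chr16:84714140-84714204, plus strand) is in an exon of the non-coding host gene Mir155hg. Mir223 (chrX:96242817-96242926, plus strand) is in an exon of the transcript F630028O10Rik. Mir150 (chr7:45121757-45121821, plus strand) overlaps no other annotated gene. Mir146 (chr11:43374397-43374461, minus strand) overlaps none either, and Mir146b (chr19:46342762-46342870, plus strand) lies in an intron of Mfsd13a. The nearest annotated miRNA gene on the same strand was 51482 bases away for Mir150 and 1172683 bases or more away for each of the other 5 members. Mir142b (chr11:87756841-87756955) is on the minus strand, and all 64 bases of the Mir142 hairpin (chr11:87756864-87756927) lie inside it on the plus strand, in an intron of Mir142hg.

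Replicate 1 held 5202588 counts on the strand of the genes and replicate 2 held 3683978. Levels are in CPM, counts per 1000000 of these, with no scaling for length, since a read of a mature miRNA covers about the same length for every gene. The 95% exact Clopper-Pearson intervals and the floors of 3 counts (0.577 CPM in the deeper library, 0.814 CPM in the other) cover counting error only: amplified reads carry no molecular identifiers here and need not be separate molecules. A gene counts as detected when both libraries held at least 10 counts of it. Counts are per hairpin, so the 5p and 3p strands of a member are summed.

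Of the 6 members, 5 had levels whose counting intervals lay wholly above the floor, led by miR-155 and miR-142, with miR-150 the lowest of the 5. The 5 detected members are Mir155, Mir142b (opposite strand), Mir223, Mir146 and Mir150, and Mir146b stayed below 10 counts. Together the counts of the 6 members equalled 0.106% of the own-strand total in replicate 1 (95% interval 0.103 to 0.109) and 0.105% in replicate 2 (0.101 to 0.108). The mean was 0.105% ± 0.000892 (SD, n = 2). That total does not hold the opposite-strand counts of Mir142b, 30.5% and 29.8% of the members' sum, so the percentage and its binomial interval are approximate. With both strands in the members and the total it was 0.103%. In CPM their sum was 1060 in replicate 1 and 1047 in replicate 2. In a whole organ such a level cannot be divided into the number of leukocytes and the miRNA per cell. Fewer cells of a type and less RNA per cell cannot be told apart. The part of the members' levels made by cells other than leukocytes was not tested.

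Mir155, which in leukocytes marks activation, had 1879 counts in replicate 1 and 1143 in replicate 2. These are 361 CPM (345 to 378) for the first library and 310 CPM (293 to 329) for the second, with a mean of 336 ± 36.0 CPM (SD, n = 2). The intervals do not overlap, and replicate 1 was the higher. By mean level Mir155 was rank 122 of the 346 detected genes.

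miR-142, the general blood cell miRNA, was read from the opposite strand of Mir142b, at 1684 counts in replicate 1 and 1151 in replicate 2. These are 324 CPM (308 to 340) and 312 CPM (295 to 331), a mean of 318 ± 7.96 CPM (SD, n = 2). The replicates were within counting error of each other, and the gene was rank 125.

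Mir223, the myeloid member, had 1383 counts in replicate 1 and 989 in replicate 2. Its levels were 266 CPM (252 to 280) and 268 CPM (252 to 286), with a mean of 267 ± 1.86 CPM (SD, n = 2) and rank 132. Its coefficient of variation, 0.696%, was the smallest of the 6 members.

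Mir146, the gene of miR-146a, had 493 counts in replicate 1 and 525 in replicate 2. At the depth of each library these are 94.8 CPM (86.6 to 104) and 143 CPM (131 to 155), with a mean of 119 ± 33.8 CPM (SD, n = 2) and rank 171. It had the largest coefficient of variation of the members, 28.5%, and the higher value in replicate 2, where Mir155 was lower.

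Mir150, the member of mature lymphocytes, had 69 counts in replicate 1 and 47 in replicate 2, or 13.3 CPM (10.3 to 16.8) and 12.8 CPM (9.37 to 17.0). The mean was 13.0 ± 0.357 CPM (SD, n = 2), at rank 271, and the SD was smaller than the counting error. Mir146b had 6 counts in replicate 1 and 3 in replicate 2, or 1.15 CPM (0.423 to 2.51) and 0.814 CPM (0.168 to 2.38). Its replicate 2 value is at the floor, and this depth sets no firm level for it.

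**Figure D1:**
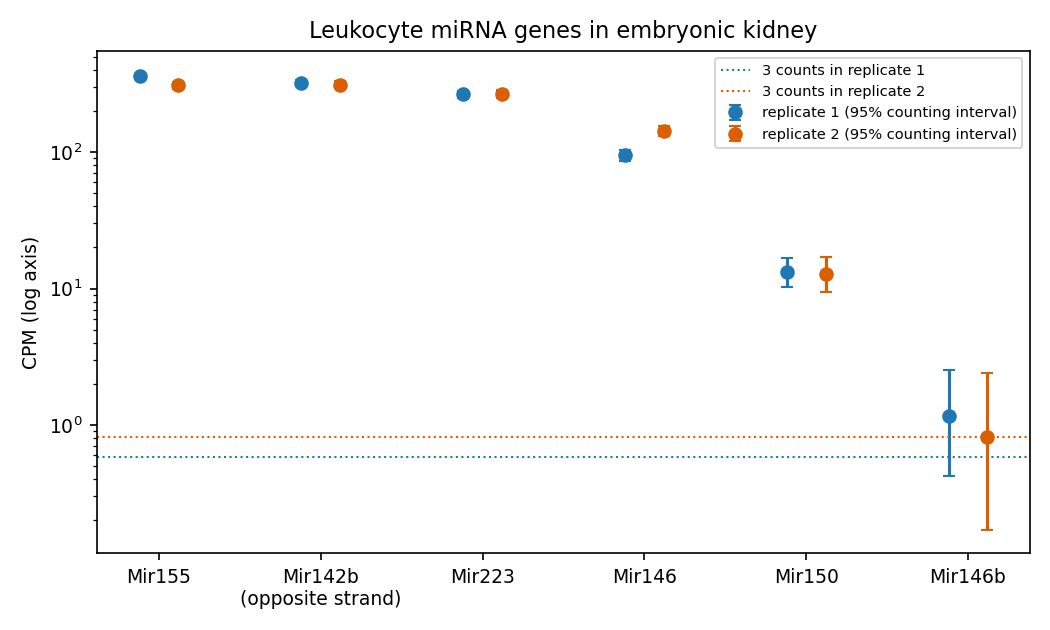
Levels of the 6 members in CPM on a log axis, for replicate 1 (blue) and replicate 2 (orange), with 95% exact counting intervals and dotted lines at 3 counts. Mir155, Mir142b on its opposite strand and Mir223 lie between 266 and 361 CPM, Mir146 at 94.8 and 143 CPM, Mir150 at 13.3 and 12.8 CPM, and Mir146b at 1.15 and 0.814 CPM, the second of which is the floor of its library.

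Most neighbours in this order were apart by more than their replicate spread, but the leading pair was not. Mir155 exceeded miR-142 by 0.16 on the log2 scale in replicate 1 (95% exact interval of the ratio 0.06 to 0.25) and fell below it in replicate 2, at -0.01 (-0.13 to 0.11). The ranges of these 2 members over the replicates overlap, so their order is not settled here. The level of miR-142 exceeded that of Mir223 by 0.28 (0.18 to 0.39) and 0.22 (0.09 to 0.34), small steps of the same sign in both libraries. Mir223 exceeded Mir146 by 1.49 (1.34 to 1.64) in replicate 1 and 0.91 (0.76 to 1.07) in replicate 2. Mir146 in turn exceeded Mir150 by 3.16 ± 0.46 (SD, n = 2), and Mir150 exceeded Mir146b by 3.75 ± 0.32. The ranges of the last 4 pairs did not overlap. Since the members were put in order by these counts, the sign of each mean difference was fixed and only its size is described.

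Mir155, miR-142 and Mir223 together made up most of the group's counts. In replicate 1 they were 34.1%, 30.5% and 25.1% of the summed counts of the 6 members, and in replicate 2 they were 29.6%, 29.8% and 25.6%. Mir146 held 8.94% in replicate 1 and 13.6% in replicate 2. Mir150 held 1.25% and 1.22%.

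The 2 genes of the miR-146 family differed widely. Mir146 had 82.2 times the counts of Mir146b in replicate 1 (95% exact interval 37.5 to 225) and 175 times in replicate 2 (59.6 to 851), or 6.91 ± 0.77 on the log2 scale (SD, n = 2). With 6 and 3 counts of Mir146b, the intervals are wide. Reads that mapped to several places, 28.3% and 27.5% of all reads, are in no gene's count, and a read that ends before base 18 of the mature strands printed above cannot be assigned to either gene. How many reads of the family were left out in this way was not tested. With a pseudocount of 1 CPM the log2 difference was 5.89.

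miR-142 was visible only on the strand opposite to the counted gene. Mir142b had 0 counts on its own strand in both replicates, against 1684 and 1151 on the other, an opposite-strand share of 100% (lower exact limits 99.8% and 99.7%). The 0 counts allow an own-strand share of up to 0.178% in replicate 1 and 0.261% in replicate 2. The reverse complement of miR-142b is bases 4 to 23 of miR-142a-3p, so both read the same 20 base pairs, and the strand alone tells them apart. Mir142 itself had no row among those analysed here. The other 5 members had 0 counts on their opposite strands in both libraries.

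Mir142b was not alone in this. Over all genes 14 had 10 or more opposite-strand counts in each replicate, and in 11 of these the opposite strand held most of the counts in both. Every one of those 11 overlaps another annotated miRNA gene on the other strand in GENCODE release M21, as 32 of the 1894 located genes do, and none of these partners had a row of its own among those analysed. Mir142b was rank 8 of the 14 on that strand. It held 1.64% of all opposite-strand counts in replicate 1 and 1.71% in replicate 2, and 7 genes of the 11, Mir142b among them, had 0 counts on their own strand in both libraries.

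**Figure D2:**
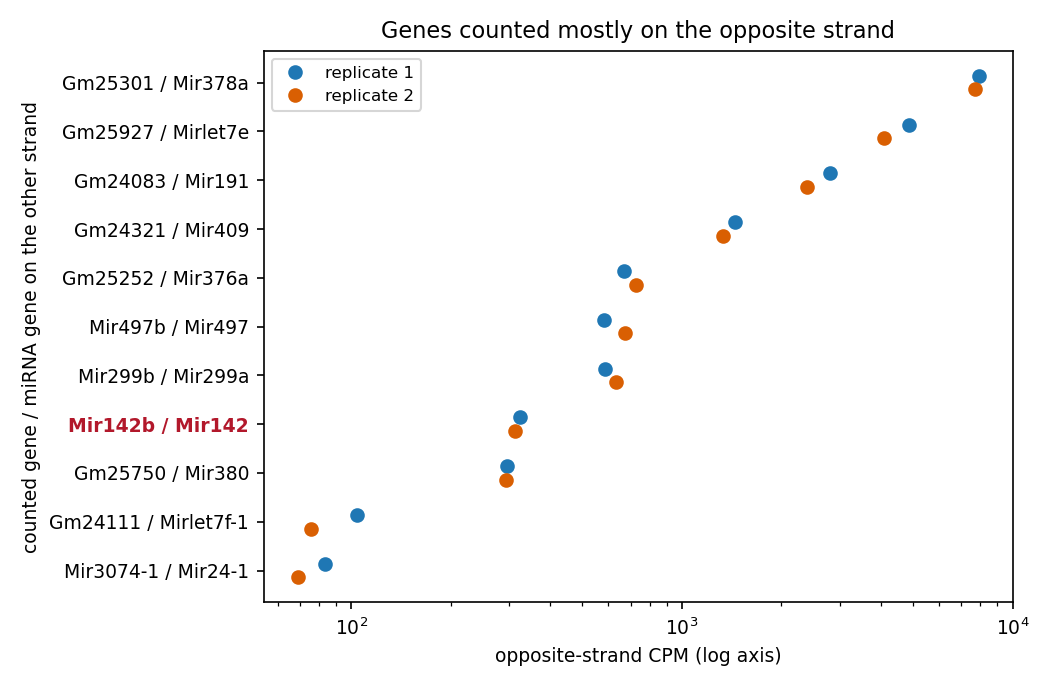
Opposite-strand level in CPM on a log axis for the 11 genes counted mostly on that strand, each named with the miRNA gene that GENCODE M21 places across from it, in replicate 1 (blue) and replicate 2 (orange). Mir142b, in red, stands at 324 and 312 CPM, and the 11 genes run from 68.9 to 7896 CPM.

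Of the members, 4 lay near the middle of the detected miRNA genes or above it, Mir150 lay well below it, and Mir146b was not detected. Mir155 lay above 64.7% of the 346 detected genes by mean CPM, miR-142 above 63.9%, Mir223 above 61.8%, Mir146 above 50.6% and Mir150 above 21.7%. In these ranks Mir142b alone is read on its opposite strand. With all 11 genes counted mostly on that strand read there, an alternative chosen after seeing the data, 355 genes were detected, and Mir155, miR-142, Mir223, Mir146 and Mir150 stood at ranks 129, 132, 140, 179 and 280. By distance between the log2(CPM + 1) values of the 2 replicates, the gene nearest to each member was Mir501 for Mir155, Mir148b for miR-142, Mir222 for Mir223, Mir301b for Mir146 and Mir128-2 for Mir150. The distances ran from 0.04 for Mir301b to 0.29 for Mir128-2. With 2 samples of 1 group, such likeness is of level only. No member was nearest to another member.

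**Figure D3:**
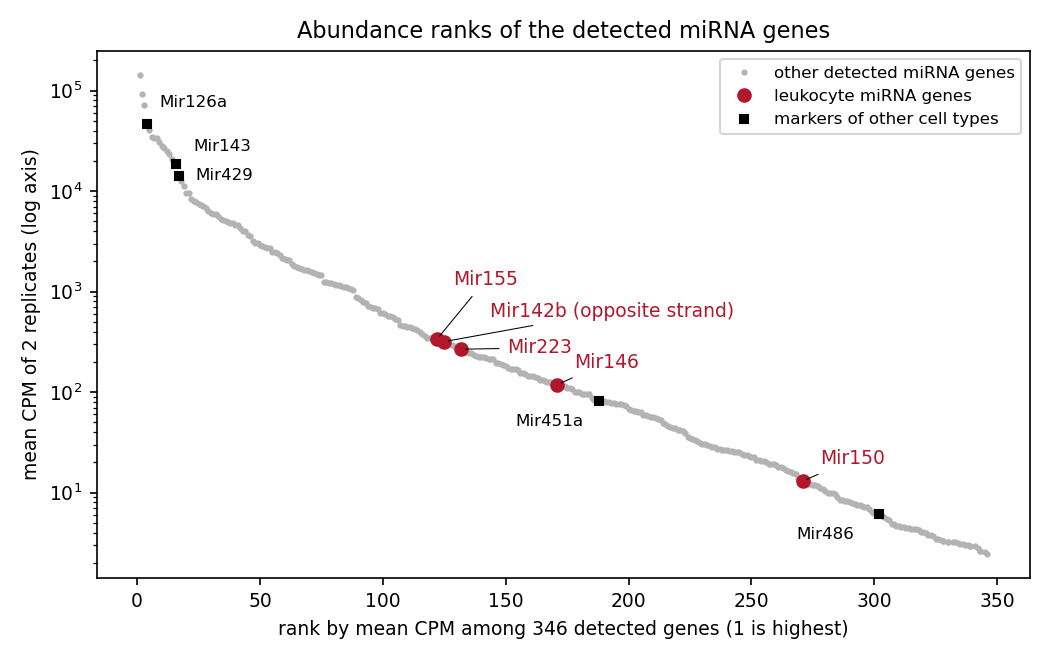
Mean CPM of the 2 replicates on a log axis against rank for the 346 detected genes, with the 5 detected members in red and genes that mark other cell types as black squares. Mir155, Mir142b on its opposite strand and Mir223 stand at ranks 122, 125 and 132, Mir146 at 171 and Mir150 at 271.

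Between the replicates Mir146 was higher and Mir155 lower in replicate 2, while the intervals of miR-142, Mir223 and Mir150 included a ratio of no change. The libraries were compared by an exact binomial test (two-sided, Benjamini-Hochberg adjusted over all 346 detected genes), which knows counting error alone and says nothing of conditions. For Mir146 the log2 ratio, replicate 2 over replicate 1, was 0.59 (95% exact interval 0.41 to 0.77, adjusted p = 3.48e-10 in the exact binomial test). Mir155 had -0.22 (-0.32 to -0.11, adjusted p = 0.000184 in the same exact test). The ratios of the others were -0.05 for miR-142 (-0.16 to 0.06), 0.02 for Mir223 (-0.10 to 0.14) and -0.05 for Mir150 (-0.62 to 0.50). Their adjusted p values in the exact test were 0.526, 0.86 and 0.973.

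A gene was called when its adjusted p was under 0.05 and its log2 ratio was 1 or more in size. By this rule of the exact binomial test, 0 of the 5 detected members were called, against 3.18% of all detected genes (11 of 346). With no minimum of the ratio, 2 of 5 members passed, Mir146 and Mir155, against 53.5% of all detected genes (185 of 346). The members' median log2 ratio was -0.05, against 0.02 over all detected genes, and their median ratio in size was 0.05, against 0.23. With an assumed coefficient of variation of 0.2 between replicates, edgeR's exact test called 0 of the 5 members at an adjusted p below 0.05. Of all detected genes it called 0.578% (2 of 346). The differences in Mir146 and Mir155 thus exceeded counting error but did not pass when a spread of that size was assumed. That spread was not estimated from these libraries.

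**Figure D4:**
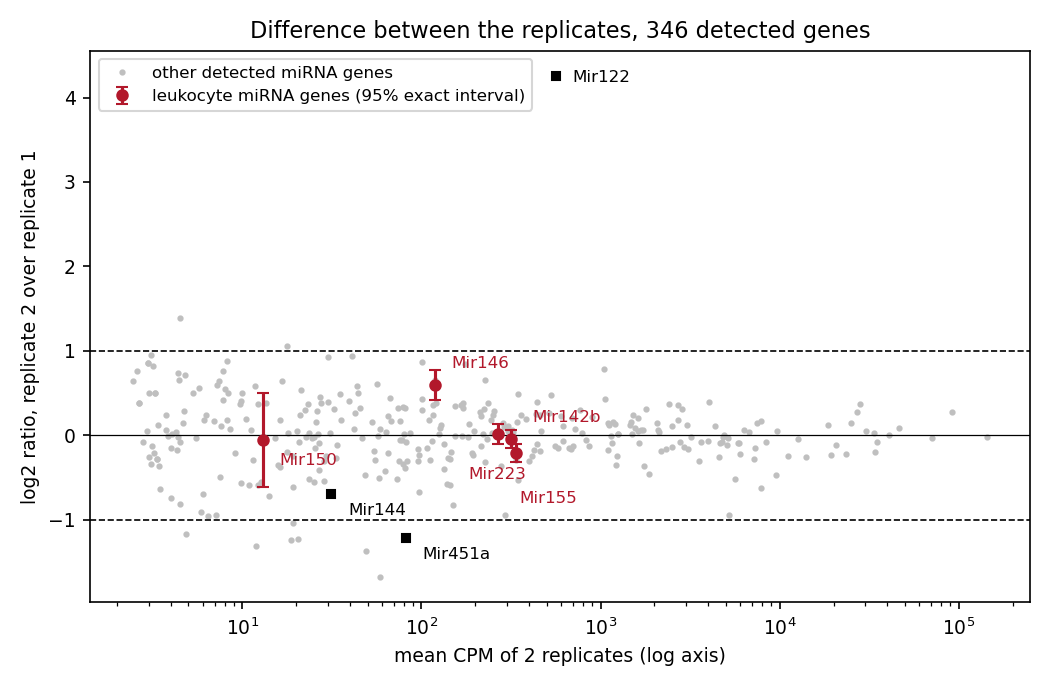
Log2 ratio of replicate 2 over replicate 1 against mean CPM (log axis) for 346 detected genes, with the 5 detected members in red with 95% exact intervals, and Mir122, Mir144 and Mir451a as black squares. The members lie between -0.22 for Mir155 and 0.59 for Mir146, inside the dashed lines at a log2 ratio of 1 in size.

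The summed level of the leukocyte members differed little between the replicates, while the erythroid sum and Mir122 differed more. The log2 ratio of the members' summed level was -0.02 (1060 CPM in replicate 1, 1047 in replicate 2). The erythroid genes Mir451a, Mir144 and Mir486, which mark red cells, summed to 161 CPM in replicate 1 and to 77.6 CPM in replicate 2, a log2 ratio of -1.05, and all 3 were detected. The members thus had 6.58 times the erythroid sum in replicate 1 and 13.5 times in replicate 2. Mir486 shares a stretch of 21 bases with Mir3107, so the erythroid sum and these ratios hold for uniquely mapped reads only. The hepatocyte miRNA gene Mir122 had 56.3 CPM in replicate 1 and 1074 CPM in replicate 2. The part of carried-over blood or liver in the members' levels was not tested, and whether vessels were flushed before extraction is not given in the sources used here.

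The tissue label was set beside markers of its cell types. The endothelial gene Mir126a was at 45180 and 47759 CPM, the 5 epithelial genes of the miR-200 family at 26800 and 23488 CPM, and the 3 stromal and smooth muscle genes Mir143, Mir145a and Mir214 at 24724 and 25343 CPM. The members' sum was 0.0235 and 0.0219 times Mir126a. The tubule genes Mir192, Mir194-2 and Mir204, which mark more mature nephron segments, were low, at 352 and 489 CPM together. Mir194-2 shares a stretch of 21 bases with Mir194-1, so that sum holds for uniquely mapped reads only. The tubule genes did not move together: the log2 ratio, replicate 2 over replicate 1, was 0.85 for Mir192, 0.87 for Mir194-2 and -0.20 for Mir204. The part of carried-over liver in the tubule sum was not tested. The neuronal genes Mir124a-1, Mir124a-2 and Mir124a-3 had 0 counts in both libraries. Reads shared among several copies of a gene are left uncounted, so those 0 counts set no limit on miR-124.

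**Figure D5:**
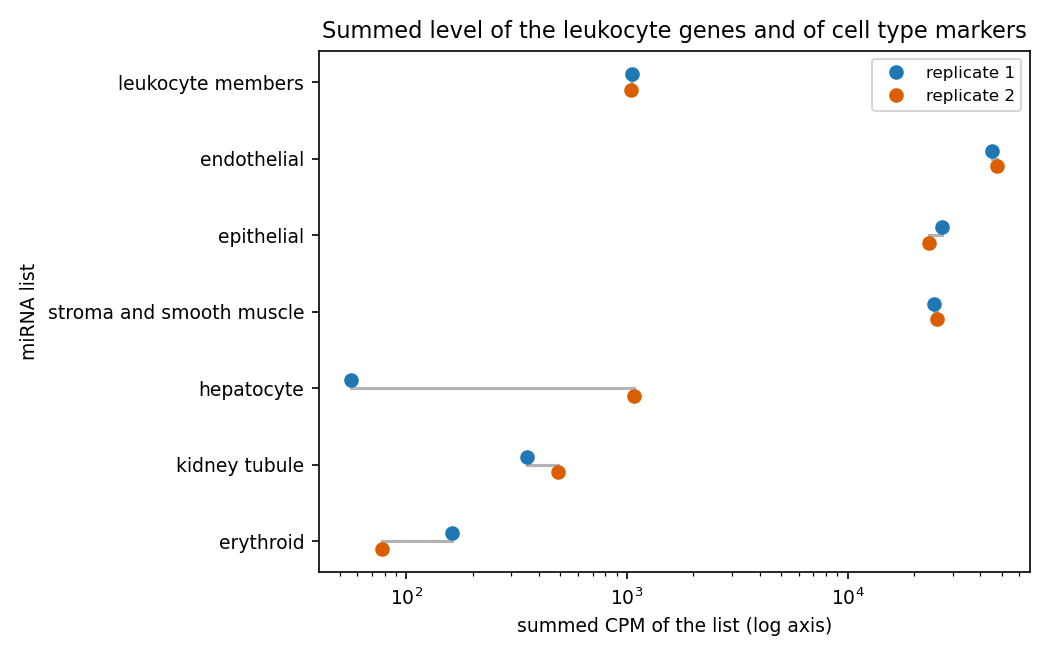
Summed CPM (log axis) of the 6 leukocyte members and of marker lists for other cell types in replicate 1 (blue) and replicate 2 (orange), joined by a grey line. The members stand at 1060 and 1047 CPM, above the erythroid list in both replicates, and the hepatocyte gene Mir122 shows the widest gap.

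Other miRNA genes with known roles in blood and immune cells were also present, many of them at higher levels than the members. Of 14 such genes 13 were counted and 12 were detected. These genes are also used by other cells of the kidney, so their levels do not stand for leukocytes. For the members too, the part made by other cells was not tested. The paired copies Mir181a-1 and Mir181a-2, Mir181b-1 and Mir181b-2, and Mir125b-1 and Mir125b-2 each share a stretch of 21 bases, so their levels and order hold for uniquely mapped reads only. The miR-181 genes, which act in lymphocyte development, were led by Mir181a-1 at 1561 ± 66.1 CPM and Mir181b-2 at 1223 ± 212 CPM (SD, n = 2), with Mir181a-2 at 292 ± 131 and Mir181b-1 at 28.5 ± 7.61 CPM. Mir125a, of a family that acts in blood progenitors, was at 3998 ± 149 CPM, and Mir125b-1 and Mir125b-2 were at 529 ± 120 and 344 ± 25.3 CPM. Mir21a, induced in activated macrophages and also abundant in other cells, was at 7260 ± 543 CPM and Mir132 at 399 ± 61.2 CPM. Mir221 was at 459 ± 51.6 CPM and Mir222 at 288 ± 13.4 CPM.

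Macrophage miRNAs of low abundance were near the limit of detection. Mir147, induced by Toll-like receptor signals, had 12 and 11 counts, or 2.31 and 2.99 CPM. Mir511, encoded in the gene of the macrophage mannose receptor Mrc1, had 8 and 6 counts, or 1.54 and 1.63 CPM, below the minimum. Of the 12 detected genes of these lists, 4 passed as higher in replicate 2 and 6 as lower (exact binomial test, adjusted p below 0.05). Over all detected genes 53.5% passed (185 of 346), so the share was larger in the lists. With a log2 ratio of 1 or more in size, 0 of the 12 passed, against 3.18% of all detected genes (11 of 346). The test knows counting error alone and the lists were chosen with earlier results known, so these counts give no result about the lists. The median log2 ratio of the 12 was 0.01.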

How the data were processed

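For each of the 2 libraries the authors deposited a table of raw counts by miRNA gene, in columns for both strands, the strand of the gene and the opposite strand; the first was their sum in every gene row. Per the deposit's file descriptions, assembly was mm10 and annotation GENCODE M4. Neither aligner nor counter is given in the sources used here. The first 4 rows, tallies naming no gene, were left out.

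Symbols and positions came from GENCODE M21, matched on identifiers without version for 1894 of 1973 genes. Own-strand counts were used, except that miR-142 was read from the opposite strand of Mir142b. CPM is per 1000000 own-strand counts. Replicates were compared across all 346 genes with at least 10 counts in each, by an exact binomial test with totals scaled by TMM factors (1.001 and 0.999) and Benjamini-Hochberg adjustment. With 1 library a side, no quasi-likelihood fit was possible. The calculation was run on simulated counts that held counting error alone, which cannot test how it handles the spread between these libraries.

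The members and gene lists were chosen with earlier results of these data known. The genes named are the 6 members, Mir142, the nearest gene to each detected member, and up to 4 detected genes of each list with its undetected genes; Mir9-1 was not analysed here. Alternatives were other minimums, strands, totals, size factors (DESeq2), pseudocounts and an edgeR exact test. Tools were edgeR 4.0.16 and DESeq2 1.42.0 under R 4.3.3, with scipy 1.17.1, numpy 2.4.6, matplotlib 3.10.9 and pandas 2.3.3 under Python 3.11.15.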

Additional observations from a re-analysis of the deposited data

How the results depend on the processing

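The number of members detected was 5 under the main minimum of 10 counts, under minimums of 5 and 20 counts and with unstranded counts. It was 6 with no minimum and 4 with every member read on its own strand. The members' share of counts, 0.105%, was 0.103% with unstranded counts, 0.0735% when Mir142b was read on its own strand, where it had 0 counts, and 0.123% with the most abundant gene taken out of the total. Without either replicate it ran from 0.105% to 0.106%. Members called between the replicates were 0 under totals alone, DESeq2 size factors, edgeR's exact test, no minimum of counts and unstranded counts, and 2 with no minimum of the ratio. Over all genes the calls were 11 in the main test, 2 in edgeR's exact test with an assumed coefficient of variation of 0.2, and 185 with no minimum of the ratio. The log2 difference of Mir146 and Mir146b, 6.91, became 5.89 with a pseudocount of 1 CPM. Mean levels of single members moved by at most 0.115% with other size factors. These were scaled to the same geometric mean of the totals, so the means could move little. With DESeq2 size factors the SD of Mir223 went from 1.86 to 0.338 CPM and that of Mir142b from 7.96 to 10.6 CPM. With unstranded counts the means moved by 1.85% to 1.88%, as the total then holds the opposite-strand counts too. Reading all 11 genes counted mostly on the opposite strand there, chosen after seeing the data, put each detected member 7 to 9 ranks lower. Depth limits Mir146b and Mir150 most, at 3 to 6 and 47 to 69 counts. No paired analysis was possible because there is 1 group.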
